A study of Sus scrofa with 4 samples.

Results

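Transcripts of 8 genes for adipokines other than leptin, and for their receptors, were followed in pig (Sus scrofa) ovaries: the ligands APLN, RARRES2 and NAMPT and the receptors APLNR, CMKLR1, ADIPOR1, ADIPOR2 and CDH13. They were chosen by name among the 22309 genes of the deposited expression table, 7 by the table's own symbol and ADIPOR1 by its Ensembl identifier through a gene name table. All 8 passed the filter on low counts. Poly(A)-enriched RNA of 4 ovary samples was sequenced: 2 from sows with leptin overexpression and 2 from WT sows, all in diestrus. The leptin overexpression sows were the F2 generation bred from male clones of 1 leptin-overexpressing pig (C013) and Duroc/Landrace/Yorkshire (DLY) sows, with F1 animals crossed once more, so they trace to 1 founder. The promoter of the transgene, the ages of the animals, the breeding of the WT sows and any pooling are not given in the sources used here. Separate animals are not stated either, so a p-value here covers a spread between samples that may be partly or wholly technical.

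Adipokines are signalling proteins first known from fat tissue, and several are also made in the ovary. Apelin, the peptide from APLN, acts through the G protein-coupled receptor APLNR, best known from the endothelium of growing vessels. Chemerin, from RARRES2, is secreted as an inactive precursor, is activated by proteases that trim its end, and draws macrophages, dendritic cells and natural killer cells through CMKLR1. Adiponectin acts through the seven-pass membrane receptors ADIPOR1 and ADIPOR2, which are tied to AMP-activated kinase and PPARA signalling and to ceramide breakdown, and its large multimers bind CDH13 (T-cadherin), a lipid-anchored cadherin of endothelium and smooth muscle. NAMPT makes nicotinamide mononucleotide, the rate-limiting step of NAD salvage, and its secreted form is called visfatin.

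Total expected counts were 16493113 to 16797511 per library, nearly equal across the 4. LEP, the overexpressed gene, had 55 and 124 counts in leptin overexpression, against 0 and 3 in WT (edgeR adjusted p = 0.198). TMM scaling factors were 0.925 and 0.809 in leptin overexpression and 1.34 and 0.998 in WT, so scaled values differ from the raw counts most in WT replicate 1. Correlation across genes, which are not independent replicates, was highest between WT replicate 2 and leptin overexpression replicate 1 (Pearson's r 0.941). It was 0.917 between the WT libraries and 0.936 between those of leptin overexpression. The closest pair thus crossed the genotypes, and the most distant was WT replicate 1 and leptin overexpression replicate 2 (0.856). Mitochondrially encoded rows took 15.1% and 16.4% of counts in leptin overexpression and 6.89% and 12.9% in WT. The tissue label was checked against a steroidogenic and a granulosa gene. This does not show that the groups held the same cell types. Summed surface epithelium and oviduct markers, given below, were lower in leptin overexpression. STAR, which carries cholesterol into mitochondria, was at 16546 and 23771 CPM, counts scaled to library size, in leptin overexpression and 7022 and 15164 CPM in WT, and FOXL2, a granulosa transcription factor, at 11.4 and 3.21 CPM in leptin overexpression and 8.62 and 9.07 CPM in WT.

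Per transcript length, RARRES2 was the most abundant of the 8 in every library, and CMKLR1, the receptor for its product, had the lowest mean FPKM over the 4 libraries, while APLN had a lower value in leptin overexpression replicate 1. RARRES2 was at 124.8 and 82.2 FPKM (fragments scaled to transcript length and library size) in leptin overexpression and 145 and 161 FPKM in WT, which placed it above 95.1% of the genes with a value above 0 in its lowest library. ADIPOR1 followed, at 54.2 and 55.6 FPKM in leptin overexpression and 54.4 and 57.4 FPKM in WT, and then ADIPOR2, at 43.0 and 29.4 FPKM in leptin overexpression and 27.4 and 60.1 FPKM in WT. The ranges of ADIPOR1 and ADIPOR2 overlapped, while RARRES2 stayed above both in every library. APLNR, at 24.5 and 6.33 FPKM in leptin overexpression and 12.8 and 24.2 FPKM in WT, and NAMPT, at 14.0 and 24.3 FPKM in leptin overexpression and 14.9 and 13.9 FPKM in WT, overlapped each other and lay below ADIPOR2. At the low end APLN, CDH13 and CMKLR1 overlapped. APLN was at 2.66 and 2.00 FPKM in leptin overexpression and 13.4 and 7.87 FPKM in WT, CDH13 at 4.29 and 2.66 FPKM in leptin overexpression and 11.1 and 6.96 FPKM in WT, and CMKLR1 at 3.54 and 1.71 FPKM in leptin overexpression and 5.80 and 4.93 FPKM in WT.

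**Figure D1:**
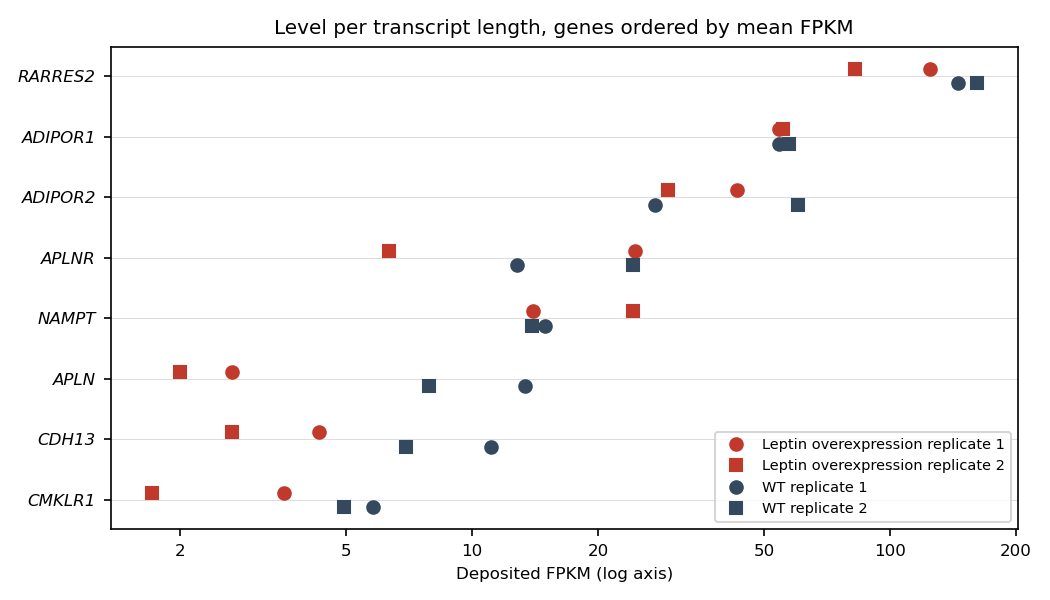
Deposited FPKM (log axis) of the 8 genes in each library, ordered by mean FPKM; circles are replicate 1 and squares replicate 2, with leptin overexpression above WT in each row. RARRES2 lies above all others in each library, ADIPOR1 is nearly level at 54.2 to 57.4 FPKM, and RARRES2, APLN, CDH13 and CMKLR1 have both leptin overexpression points left of both WT points.

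Leptin overexpression was set against WT to see which transcripts of the ovary differ with the genotype. Apelin transcripts had the largest difference of the 8. APLN (ENSSSCG00000048443) had 132 and 99 counts in leptin overexpression, with exact Poisson 95% intervals of 110.4 to 157 and 80.5 to 121, and 661 and 396 counts in WT, with intervals of 612 to 713 and 358 to 437; these and the intervals of count ratios given later cover counting error only. After TMM scaling this was 8.01 ± 0.864 CPM in leptin overexpression and 26.8 ± 4.50 CPM in WT (SD, n = 2 each). Both leptin overexpression libraries lay below both WT libraries, before and after scaling. The ratio of leptin overexpression to WT was 0.299 (95% interval 0.158 to 0.565), a log2 fold change of -1.74 (SE 0.41). This did not pass the threshold of 0.05 over the 13937 genes tested (edgeR's quasi-likelihood test, Benjamini-Hochberg adjusted p = 0.225), where 0.0287% of genes passed in either direction. DESeq2 called APLN lower (adjusted p = 0.0278), as it did 1.36% of its 15830 genes. So did edgeR without a filter (adjusted p = 0.0386, with 0.939% of genes lower), edgeR on library totals alone (adjusted p = 0.00641, 3.43%) and limma-trend on log2(FPKM + 0.1) (adjusted p = 0.0161, 2.96%). With 1 library left out at a time the log2 fold change of APLN lay between -1.93 and -1.58, and the edgeR adjusted p between 0.0655 and 1.00.

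APLNR (ENSSSCG00000038869), the receptor of apelin, was at 98.4 and 29.1 CPM in leptin overexpression and 35.6 and 90.2 CPM in WT. Each group held 1 high and 1 low library, and the groups overlapped fully. The log2 fold change was 0.02 (SE 0.65, 95% interval -1.50 to 1.54, edgeR adjusted p = 0.993), so a difference of either sign up to 1.5 on the log2 scale lay within the interval; the sign turned with upper-quartile factors, library totals, limma-voom and FPKM. It was -1.10 without leptin overexpression replicate 1 and -0.51 without WT replicate 1, against 0.66 without leptin overexpression replicate 2 and 0.83 without WT replicate 2. Within a library, where no scaling between libraries enters, the ratio of APLN to APLNR counts was 0.0876 and 0.254 in leptin overexpression (exact binomial 95% intervals 0.0728 to 0.105 and 0.202 to 0.318) and 0.842 and 0.262 in WT (0.758 to 0.935 and 0.234 to 0.293). Leptin overexpression replicate 2 and WT replicate 2 had ratios within each other's counting error. Between those 2 libraries APLN and APLNR were thus lower by about the same factor in leptin overexpression.

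**Figure D2:**
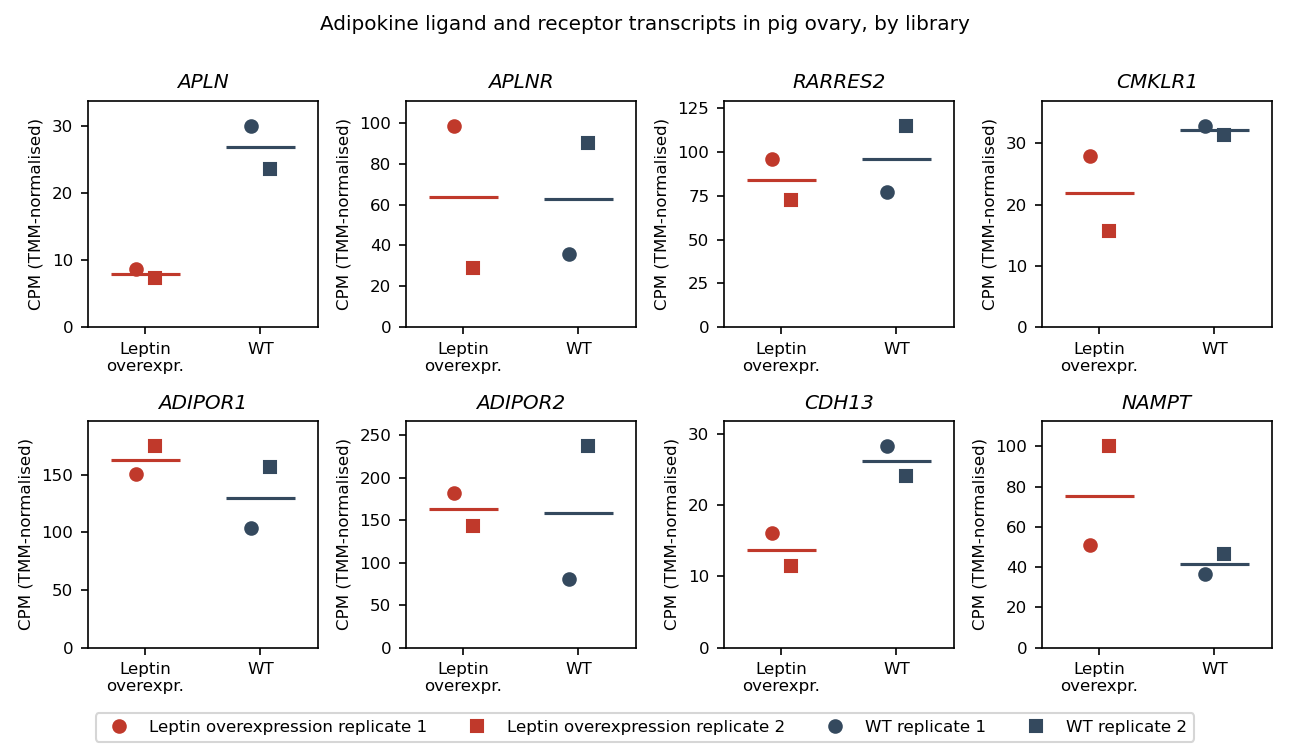
TMM-normalised CPM of the 8 genes by library, 1 panel per gene with its own axis from 0; circles are replicate 1, squares replicate 2, and bars the mean of each group of 2. APLN, CMKLR1 and CDH13 are lower in both leptin overexpression libraries than in both WT libraries, NAMPT is higher in both, and the other 4 overlap.

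The chemerin pair showed smaller differences. RARRES2 (ENSSSCG00000035419) was at 96.1 and 72.5 CPM in leptin overexpression and 77.0 and 115 CPM in WT. The groups overlapped after scaling, whereas before it RARRES2 had 1472 and 970 counts in leptin overexpression and 1698 and 1925 counts in WT, which do not overlap, as in FPKM. The log2 fold change was -0.19 (SE 0.39, 95% interval -1.07 to 0.69, edgeR adjusted p = 0.876), and 0.11 without WT replicate 2. CMKLR1 (ENSSSCG00000031346), the receptor, was at 27.9 and 15.8 CPM in leptin overexpression and 32.8 and 31.4 CPM in WT. The WT libraries were close together, and both leptin overexpression libraries were below them. Its log2 fold change was -0.56 (SE 0.41, 95% interval -1.49 to 0.38, edgeR adjusted p = 0.654), and it was -0.19 without leptin overexpression replicate 2, which held the lowest value, and -1.01 without leptin overexpression replicate 1. The expected counts of CMKLR1, as those of ADIPOR1 and CDH13, were not whole in every library, which arises where reads are divided between genes, so part of their reads may belong to other genes. Within libraries the RARRES2 level was 35.3 and 48.1 times that of CMKLR1 in FPKM in leptin overexpression and 25.1 and 32.7 times in WT. The ratio of RARRES2 to CMKLR1 counts was 3.45 and 4.597 in leptin overexpression and 2.35 and 3.66 in WT. The groups thus overlapped in the count ratio but not in the FPKM ratio.

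Of the adiponectin receptors, the signalling receptors did not separate the genotypes, and the binding protein CDH13 was lower in leptin overexpression without passing the threshold. ADIPOR1 (ENSSSCG00000010931) had 2302 and 2336 counts in leptin overexpression and 2290 and 2618 in WT. This was the narrowest range of the 8 in counts but not in log2 CPM, where that of RARRES2 was narrower. After scaling ADIPOR1 was at 150.3 and 174.5 CPM in leptin overexpression and 104 and 156 CPM in WT. The groups overlapped in both units. Its log2 fold change was 0.32 (SE 0.40, 95% interval -0.59 to 1.23, edgeR adjusted p = 0.792), but -0.07 on library totals and -0.03 on either FPKM scale, so its sign depended on the scaling. ADIPOR2 (ENSSSCG00000000757) was at 182 and 143 CPM in leptin overexpression and 80.5 and 237 CPM in WT. The WT libraries were lowest and highest of the 4, with both leptin overexpression libraries between them. The log2 fold change of 0.04 (SE 0.53, 95% interval -1.16 to 1.23, edgeR adjusted p = 0.985) became -0.56 without WT replicate 1 and 0.99 without WT replicate 2, and turned negative with upper-quartile factors, library totals and FPKM. The ratio of ADIPOR1 to ADIPOR2 counts within a library was 0.824 and 1.22 in leptin overexpression and 1.29 and 0.660 in WT. Each group thus held 1 library on either side of equal counts. In FPKM the ratio was 1.26 and 1.89 in leptin overexpression and 1.99 and 0.955 in WT. Per length, ADIPOR2 was thus above ADIPOR1 only in WT replicate 2.

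CDH13 (ENSSSCG00000002684) had 246 and 153 counts in leptin overexpression and 623 and 405 in WT. After scaling it was at 13.7 ± 3.27 CPM in leptin overexpression and 26.2 ± 2.90 CPM in WT (SD, n = 2 each). Both leptin overexpression libraries lay below both WT libraries. The ratio of leptin overexpression to WT was 0.525 (95% interval 0.280 to 0.982), a log2 fold change of -0.93 (SE 0.40), with an edgeR p of 0.0449 before and 0.525 after adjustment; DESeq2 gave an adjusted p of 0.492. With 1 library left out at a time the log2 fold change lay between -1.18 and -0.69.

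Adiponectin itself was nearly without counts. ADIPOQ had 1 and 0 counts in leptin overexpression and 1 and 0 in WT, and the 3 counts that a 0 still allows corresponded to 0.196 and 0.224 CPM in leptin overexpression and 0.136 and 0.179 CPM in WT. PLIN1, the lipid droplet coat protein of fat cells, had 6 and 0 counts in leptin overexpression and 9 and 7 in WT. Of 20 adipocyte marker symbols 18 had a row and 13 were tested, with ADIPOQ, CIDEC and PLIN1 among the 5 not tested. The summed CPM of the list was 381 and 300 in leptin overexpression and 131 and 222 in WT, while 6 of the 13 had higher and 7 lower estimates (median log2 fold change -0.26, opposite to the sums) and 0 passed the threshold. LEP, the overexpressed gene, was on this list and among the 6 higher, a direction set by the design. LPL, the lipase that frees fatty acids from lipoproteins, was at 225 and 189 CPM in leptin overexpression and 25.0 and 80.3 CPM in WT. The separation of the list's sums rested on LPL, without which the groups would overlap. PNPLA2, the triglyceride lipase of fat droplets, was at 47.7 and 32.7 CPM in leptin overexpression and 40.5 and 56.2 CPM in WT.

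NAMPT (ENSSSCG00000015435) was the only one of the 8 with both leptin overexpression libraries above both WT libraries, and this rested on scaling. It had 777 and 1338 counts in leptin overexpression and 801 and 775 in WT, where the groups overlap, and 50.7 and 99.9 CPM in leptin overexpression and 36.3 and 46.2 CPM in WT after scaling. Leptin overexpression replicate 2 was high, and the other 3 libraries lay close together. The log2 fold change was 0.87 (SE 0.42, 95% interval -0.09 to 1.82, edgeR adjusted p = 0.564), 0.31 without leptin overexpression replicate 2 and 1.29 without leptin overexpression replicate 1.

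Of the 8 genes, 0 passed the edgeR threshold in either direction. Both groups were apart, with lower values in leptin overexpression, for 3 of the 8 (37.5%), against 22.9% of all tested genes, and with higher values for 1 of the 8 (12.5%), against 22.2%. At an unadjusted p under 0.05, 2 were lower, APLN and CDH13, against 5.32% of all tested genes, and 0 higher, against 4.04%. The median log2 fold change of the 8 was -0.08, that of all tested genes -0.01. Library totals alone moved the median of all genes to -0.43, FPKM with a pseudocount of 1 or 0.1 to -0.30 or -0.40, and upper-quartile factors to -0.11. Relative to the median of all genes, over these 4 scalings and RLE factors, APLN lay between -1.76 and -1.47, CDH13 between -0.95 and -0.86, CMKLR1 between -0.68 and -0.53, and RARRES2 between -0.29 and -0.13. On the same relative scale NAMPT lay between 0.63 and 0.88, ADIPOR1 between 0.27 and 0.38 and ADIPOR2 between 0.05 and 0.21, while APLNR ran from -0.15 to 0.17.

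**Figure D3:**
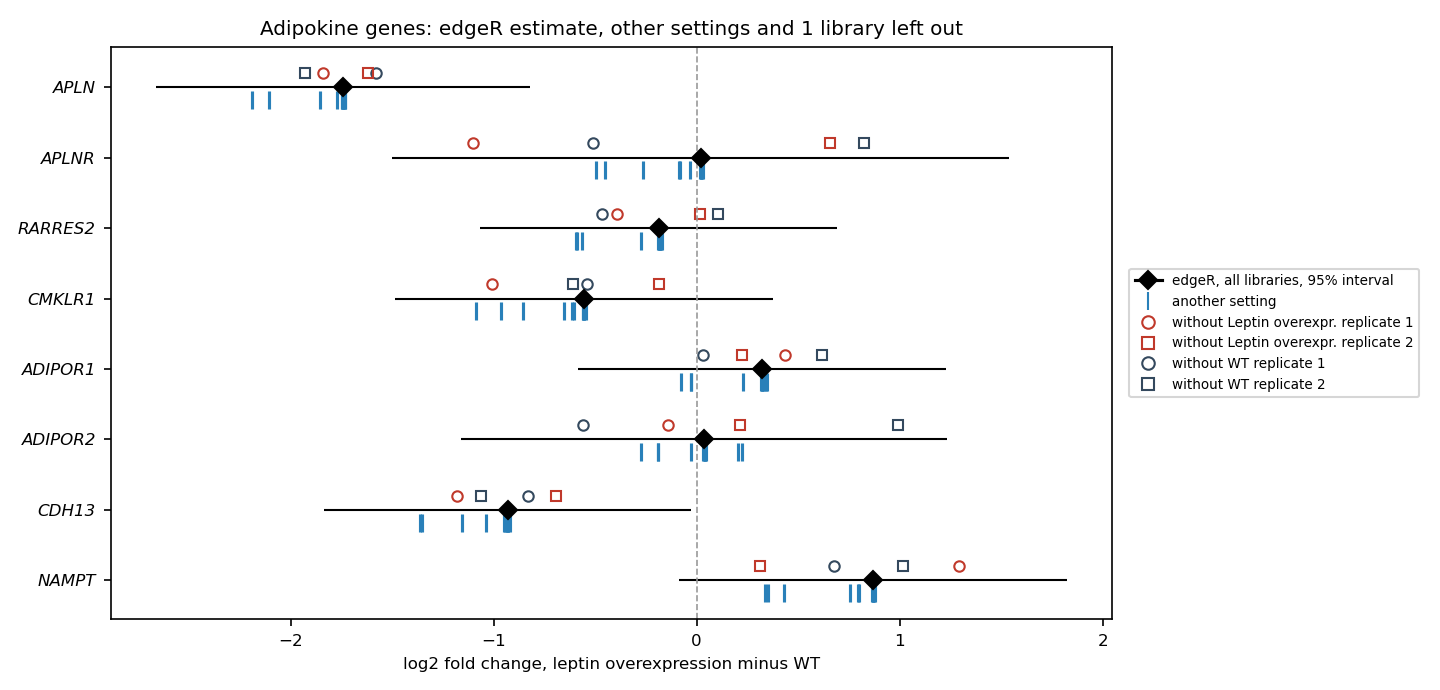
Log2 fold change (leptin overexpression minus WT) of the 8 genes: diamonds and lines are the edgeR estimate and its 95% interval, blue ticks 11 other settings, and open symbols the fits with 1 library left out. All points of APLN, CMKLR1 and CDH13 lie below 0 and all points of NAMPT above 0, while those of APLNR, RARRES2, ADIPOR1 and ADIPOR2 lie on both sides.

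APLN, APLNR and CDH13 are known from vessels and CMKLR1 from myeloid cells, so these genes were set beside markers of those cells. In bulk tissue, fewer cells of a type and less RNA per cell cannot be told apart. Of 21 endothelial markers, all tested, 18 had lower and 3 higher estimates in leptin overexpression and 0 passed the threshold; the median log2 fold change was -0.44, against -0.01 over all genes. Their summed CPM was 1512 and 766 in leptin overexpression and 1155 and 2142 in WT, so the groups overlapped, as for APLNR. PECAM1, a junction protein of endothelium, was at 196 and 138 CPM in leptin overexpression and 232 and 290 CPM in WT, and KDR, the main VEGF receptor, at 242 and 85.8 CPM in leptin overexpression and 128 and 315 CPM in WT. Per 100 counts of the endothelial list, APLN had 0.570 and 0.966 counts in leptin overexpression and 2.60 and 1.10 in WT, and CDH13 1.06 and 1.49 in leptin overexpression and 2.45 and 1.13 in WT. On that scale the value of APLN in leptin overexpression replicate 2 was within counting error of that in WT replicate 2, and the values of CDH13 overlapped.

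Smooth muscle and pericyte markers had lower summed values in leptin overexpression, as CDH13 did. All 16 were tested, 13 with lower estimates and 0 past the threshold (median log2 fold change -0.81), and their summed CPM was 1458 and 1477 in leptin overexpression and 2125 and 2279 in WT. ACTA2, the actin of smooth muscle, was at 232 and 367 CPM in leptin overexpression and 385 and 418 CPM in WT, and RGS5, a pericyte regulator of G protein signalling, at 368 and 276 CPM in leptin overexpression and 212 and 325 CPM in WT. Per 100 counts of this list CDH13 had 1.10 and 0.774 counts in leptin overexpression and 1.33 and 1.06 in WT, which overlap, and APLN 0.591 and 0.501 in leptin overexpression and 1.41 and 1.04 in WT, which do not. The part of these cells in the levels of APLN and CDH13 was not tested.

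The sums of macrophage and monocyte markers were lower as well. Of these, 10 of 14 tested had lower estimates and 0 passed (median log2 fold change -0.44), with summed CPM of 500.2 and 436 in leptin overexpression and 567.5 and 699 in WT, and LYZ at 0 counts in every library. C1QC and C1QB, complement chains made by tissue macrophages, were at 124 and 79.8 CPM and at 101 and 83.1 CPM in leptin overexpression, against 93.2 and 198 CPM and 98.4 and 151 CPM in WT. Per 100 counts of this list CMKLR1 had 5.57 and 3.61 counts in leptin overexpression and 5.78 and 4.49 in WT, so its groups overlapped on that scale. Natural killer and dendritic cell markers, the other known bearers of CMKLR1, summed to 47.2 and 59.9 CPM in leptin overexpression and 52.8 and 74.7 CPM in WT, with KLRD1 at 0 counts, 2 of 9 tested genes with higher and 7 with lower estimates, and 0 past the threshold. IRF8 was at 25.4 and 22.8 CPM in leptin overexpression and 25.4 and 37.4 CPM in WT, and NKG7 at 4.57 and 6.05 CPM in leptin overexpression and 14.9 and 8.18 CPM in WT. KLRK1, an activating receptor of natural killer and T cells named after its values were seen, had higher values instead, at 4.11 and 14.7 CPM in leptin overexpression and 0.862 and 2.63 CPM in WT (log2 fold change 2.44, edgeR adjusted p = 0.388). Neutrophil markers, listed for NAMPT, summed to 76.1 and 86.4 CPM in leptin overexpression and 139 and 125 CPM in WT, opposite to NAMPT, with ELANE and MMP8 at 0 counts. All 7 tested neutrophil genes had lower estimates and 0 passed the threshold. The estimate farthest from 0 was that of LTF, lactoferrin, at 0.196 and 1.20 CPM in leptin overexpression and 33.2 and 9.73 CPM in WT (log2 fold change -4.96, edgeR adjusted p = 0.209). FCGR3A and S100A12 had the highest mean CPM over the 4 libraries, S100A12 through WT replicate 2. S100A12 was at 5.88 and 4.78 CPM in leptin overexpression and 1.36 and 34.5 CPM in WT. FCGR3A was at 66.9 and 78.2 CPM in leptin overexpression and 82.3 and 73.9 CPM in WT. It made up most of the neutrophil sum in every library, and its groups overlapped.

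Sums of the other lists were as follows. Surface epithelium and oviduct markers summed to 54.6 and 111 CPM in leptin overexpression and 645 and 349 CPM in WT, 10 of 11 tested genes having lower estimates; OVGP1, an oviduct secretory glycoprotein, was at 0.0653 and 1.20 CPM in leptin overexpression, against 316 and 183 CPM in WT, and TPPP3, a microtubule-binding protein, at 28.6 and 18.7 CPM in leptin overexpression and 66.0 and 35.2 CPM in WT. This list differed in the direction of APLN, CDH13 and CMKLR1, and its part in their levels was not tested. Luteal markers summed to 42118 and 46376 CPM in leptin overexpression and 20462 and 44334 CPM in WT, which overlap. CYP11A1, which opens steroid synthesis, was at 9244 and 7631 CPM in leptin overexpression and 3822 and 12182 CPM in WT. ADIPOR2 had the same order of libraries as CYP11A1, lowest in WT replicate 1 and highest in WT replicate 2.

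**Figure D4:**
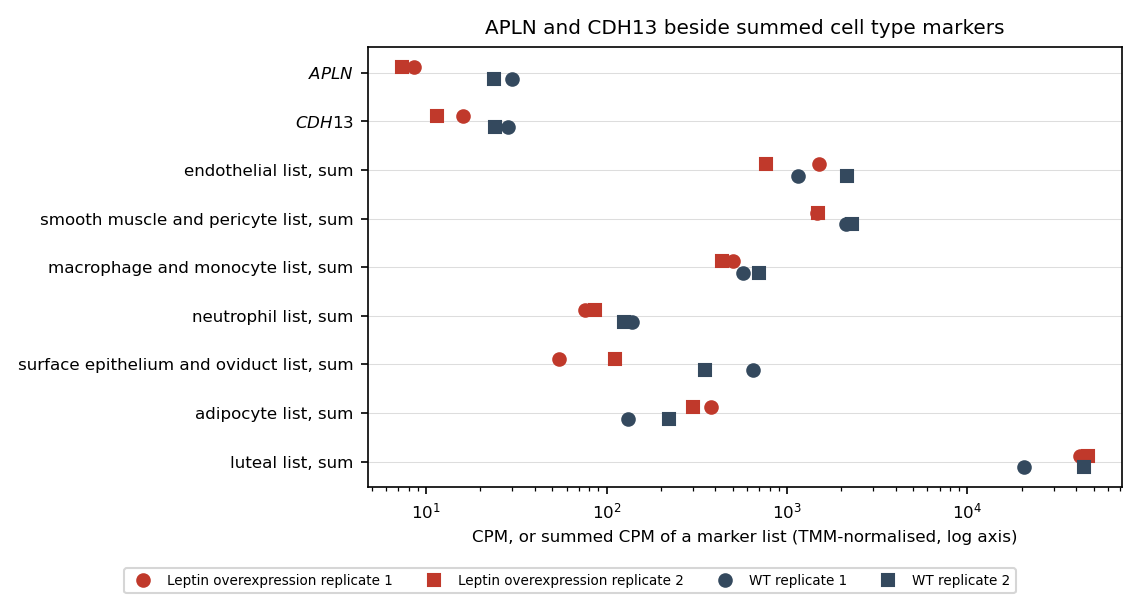
CPM of APLN and CDH13 and summed CPM of 7 cell type marker lists (log axis), leptin overexpression above WT in each row; circles are replicate 1 and squares replicate 2. The endothelial sums overlap between the groups, at 766 to 1512 in leptin overexpression and 1155 to 2142 in WT, while APLN and CDH13 do not overlap.

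The genes that act with these ligands and receptors were described as lists, none of which held a gene past the edgeR threshold. Of 27 symbols listed for apelin processing and signalling, 25 were tested, 17 with lower and 8 with higher estimates (median log2 fold change -0.28). The groups were apart for 8 lower and 5 higher, where 22.9% and 22.2% of all tested genes were. HIF1A, a hypoxia factor known to act on the apelin gene, was at 200.03 and 343 CPM in leptin overexpression and 177 and 157 CPM in WT (log2 fold change 0.70, edgeR adjusted p = 0.607), the direction opposite to APLN. The part of HIF1A in the level of APLN was not tested. GNAI2, an inhibitory G protein subunit of the kind APLNR couples to, was at 218 and 159 CPM in leptin overexpression and 239 and 239.9 CPM in WT. APELA, the other ligand of APLNR, had 0 and 1 counts in leptin overexpression and 1 and 0 in WT.

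Of 25 genes listed for proteases known or likely to trim chemerin, 21 had a row and 10 were tested, 8 with lower and 2 with higher estimates (median -0.23); CPN2, ELANE, F11, KLKB1 and PRTN3 had 0 counts. CTSB, a lysosomal cathepsin, was at 1034 and 860.4 CPM in leptin overexpression and 1192 and 1010 CPM in WT, and PLAT, the tissue plasminogen activator, at 479 and 195 CPM in leptin overexpression and 147 and 1074 CPM in WT. CCRL2 and GPR1, further chemerin receptors, were low, at 3.07 and 1.79 CPM and at 1.37 and 0.523 CPM in leptin overexpression, against 3.95 and 2.03 CPM and 1.59 and 0.597 CPM in WT.

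Of 34 genes of adiponectin receptor signalling, 32 were tested, 19 with higher and 13 with lower estimates (median 0.19), and the groups were apart for 10 higher and 5 lower, where 22.2% and 22.9% of all tested genes were. APPL1, the adaptor that binds both receptors, was at 40.1 and 79.4 CPM in leptin overexpression and 44.7 and 38.3 CPM in WT. ASAH1, the acid ceramidase, was at 161 and 229 CPM in leptin overexpression and 189 and 316 CPM in WT, and ERP44, which retains adiponectin in the secretory pathway, at 146 and 307 CPM in leptin overexpression and 83.8 and 132 CPM in WT (log2 fold change 1.07, edgeR adjusted p = 0.545).

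Of 38 genes of NAD synthesis and use, 32 were tested, 10 with higher and 22 with lower estimates (median -0.17). NADK and NADK2, the cytosolic and mitochondrial NAD kinases, were at 89.1 and 73.0 CPM and at 67.2 and 215 CPM in leptin overexpression, against 115 and 102 CPM and 33.0 and 60.3 CPM in WT. NMNAT1, which turns the product of NAMPT into NAD, was at 5.29 and 6.42 CPM in leptin overexpression and 8.35 and 6.74 CPM in WT. NNMT, which methylates the substrate of NAMPT, had 0 counts in all 4 libraries.

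Likeness of pattern was measured as the root-mean-square difference between log2 CPM profiles over the 4 libraries, each centred on its own mean, among 253 tested genes of the lists; with 4 points many genes lie close, so this is a description. APLN lay closest to CD68, a macrophage lysosomal protein (0.23), and SOX17, an endothelial transcription factor (0.30), with 0.517% of all tested genes at least as close as CD68. CDH13 lay closest to LMOD1, of smooth muscle (0.070), and GPD1 (0.086), and APLNR to PAQR4 and ACE, the angiotensin-converting enzyme (both 0.17). RARRES2 lay closest to GNA11 (0.060) and PNPLA2 (0.078), and CMKLR1 to CERK, the ceramide kinase (0.066), and GRK2, a kinase of activated receptors (0.089). ADIPOR1 lay closest to CPD (0.022) and PRKAB2, a subunit of AMP-activated kinase (0.048), ADIPOR2 to CYP11A1, the side-chain cleavage enzyme of steroid synthesis (0.062), and NAMPT to CAB39, a partner of the kinase STK11 (0.039), and GNAI3 (0.054). Among the 8 genes themselves the closest pair was CMKLR1 and CDH13 (0.21) and the most distant APLN and NAMPT (1.35); APLN and APLNR, ligand and receptor, differed by 1.15, and RARRES2 and CMKLR1 by 0.35.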

How the data were processed

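For each gene and library the authors deposited an expected count, unscaled and not always whole, and an FPKM value, scaled to length and fragments, per the file headers. Per the submitters' processing notes, the tools included RSEM, HISAT2, fastp 0.18.0, StringTie 1.3.1, edgeR 3.32.0, DESeq2 and Bowtie2 2.2.8, with roles not stated. Genome build and use of strand were not given in the sources used here. Columns named Ctrl and Leptin were matched to samples by their titles.

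Expected counts were rounded. Genes were kept with filterByExpr (13937 kept, 8372 removed), scaled with TMM and tested by quasi-likelihood in edgeR 4.0.16 (with limma 3.58.1, DESeq2 1.42.0 and R 4.3.3), with genotype as covariate and Benjamini-Hochberg adjustment over all tested genes, threshold 0.05. SE is the absolute log2 fold change over the square root of F. Log2 CPM used a prior count of 2. An exact permutation test of 2 against 2 samples cannot go below p = 0.333 (two-sided) and was not used.

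The genes and lists were chosen with earlier results of these data known. Named were the 8 genes, LEP, partners of each pathway, and the 2 genes of highest mean CPM per list described, where none passed; a few results under this rule are not reported here. FOXL2 (tissue check), ADIPOQ, PLIN1 and CIDEC in the adipocyte list, and the ratios within libraries were chosen after values were seen. Of 340 list entries, 311 matched a row; PAQR9 was left out because its row is described as another gene. Alternatives were other scalings, filters and tools, FPKM, a block on replicate number, and fits without 1 library.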

Additional observations from a re-analysis of the deposited data

How the results depend on the processing

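With all libraries, 4 genes were called higher and 0 lower (563 and 741 at an unadjusted p under 0.05). These counts were 7 and 4 with upper-quartile factors, 73 and 478 on library totals, 84 and 168 without a filter, 104 and 215 by DESeq2, 1 and 0 by limma-voom, 70 and 256 by limma-trend on log2(FPKM + 1), and 105 and 413 on log2(FPKM + 0.1). With 1 library left out they ran from 0 to 258 higher and from 0 to 423 lower. With the replicate number as a block they were 11 and 12, and the log2 fold change of APLNR was -0.080; same-numbered samples did not deviate together (r = -0.0995 across genes), the labels do not pair them, and none of the 8 genes passed under the block. APLN was the 1 gene of the 8 called, lower, on library totals (-2.19), without a filter (-1.73), by DESeq2 (-1.74) and on log2(FPKM + 0.1) (-2.11), and 0 of the 8 were called in the other settings.

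Signs turned, always without a call. APLNR, at 0.02, became -0.033 with upper-quartile factors, -0.27 on library totals, -0.085 by limma-voom, -0.45 on log2(FPKM + 1) and -0.50 on log2(FPKM + 0.1). ADIPOR1, at 0.32, became -0.075 on library totals, -0.025 on log2(FPKM + 1) and -0.026 on log2(FPKM + 0.1). ADIPOR2, at 0.04, became -0.030, -0.28, -0.19 and -0.19 with upper-quartile factors, library totals and the FPKM scales in turn. With 1 library left out APLNR ran from -1.10 to 0.83, ADIPOR2 from -0.56 to 0.99 and RARRES2 from -0.46 to 0.11. APLN, CDH13, CMKLR1 and NAMPT kept their direction in all settings run. The cause of these changes was not tested. A fit without 1 library has only 1 sample in that group, assumed to vary like the other group; with 2 samples a group, the intervals allow differences of up to 1.5 on the log2 scale for APLNR.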

Other observations

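Among 25 tested genes of a wider adipokine list, 16 had higher and 9 lower estimates in leptin overexpression (median log2 fold change 0.31) and 0 passed the edgeR threshold. LEP, the overexpressed gene, was on that list and among the 16 higher, a direction set by the design. GRN, progranulin, was at 350.1 and 199 CPM in leptin overexpression and 226 and 354 CPM in WT. LCN2, lipocalin 2, named after its values were seen, was at 5.42 and 3.36 CPM in leptin overexpression and 35.6 and 33.8 CPM in WT (log2 fold change -2.98, SE 0.44, edgeR adjusted p = 0.129). Summed surface epithelium and oviduct markers, given above, differed in the same direction, and their part in the level of LCN2 was not tested. CAMKK1, an upstream kinase of AMP-activated kinase in the adiponectin pathway, also named after its values were seen, was at 57.2 and 75.3 CPM in leptin overexpression and 20.0 and 27.6 CPM in WT (log2 fold change 1.48, SE 0.38, edgeR adjusted p = 0.264). FABP4, a fatty acid carrier known from fat cells, was chosen in the same way. It was at 0.588 and 0.822 CPM in leptin overexpression and 12.7 and 2.80 CPM in WT. Its log2 fold change was -3.45 (edgeR adjusted p = 0.249), against the direction of LPL on the adipocyte list.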
